A study of Mus musculus with 28 samples.

Results

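The response to lipopolysaccharide (LPS) in the spleen of PPARg-null mice was followed on 8 of the series' 28 arrays. They are the arrays labelled null in the experiment that held both genotypes, chosen by their labels alone: 4 from mice challenged with LPS, 2 on the abscisic acid (ABA) diet and 2 on the control diet, and 4 from mice without LPS, split between the diets in the same way. LPS is a component of the outer membrane of Gram-negative bacteria and ABA is a plant hormone given here in the diet. The null mice are labelled PPAR g flfl; MMTV-Cre+, so floxed Pparg meets a Cre recombinase driven by the MMTV promoter, and the submitters call the knock-out specific to epithelial and immune cells. Other cells of the spleen may therefore keep the gene. The wild-type mice of the same experiment, labelled PPAR g flfl; MMTV-Cre-, carry the floxed alleles without Cre and gave 8 arrays of the same 4 combinations of diet and challenge. The dose of LPS, the time after it, and the age, sex and background strain of the mice are not given in the sources used here. The protocols speak of splenocytes and of homogenised tissue, and the source is labelled spleen.

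LPS is carried by CD14 to the receptor complex of TLR4 and MD-2, which signals through NF-kB to cytokine and chemokine genes and through IRF3 to interferon beta. Secreted interferons then act through STAT factors on a broad set of antiviral and antigen-presentation genes. PPARg is a nuclear receptor that drives genes of lipid uptake and storage and that can restrain NF-kB targets in macrophages. The spleen holds B and T cells in its white pulp and, in its red pulp, macrophages that clear old red cells, recycle their iron and, in the mouse, sit among dividing erythroid precursors.

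RNA was measured on a 1-colour array of 45101 probe sets, and each value is the deposited log2 intensity, on which 1 unit is a factor of 2. A change is the LPS mean minus the mean without LPS with diet as a term, followed by its standard error (SE). It was called where limma's p, adjusted by Benjamini-Hochberg over all 10492 genes tested, was under 0.05. Each gene was read from the single-gene probe set with the highest mean. The lowest value, 2.24, was shared by 35.9% to 37.6% of the probe sets of an array, so a level at or near it has no order below it. Arrays of null mice correlated at 0.958 to 0.993 with each other. Nothing in the labels says that the arrays came from separate animals, and p-values then measure only the spread between these samples. In whole-spleen RNA, fewer cells of a type and less RNA per cell cannot be told apart.

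The arrays differed in ways that the groups do not explain, and counts that move with them are given beside many of the lists concerned. A list without such a note is not thereby shown to be stable. 2 alternatives bear on them, a term for the arrays high in Xist and a fit without the 2 arrays high in pancreas transcripts. Xist, the transcript of the inactive X chromosome, was at 12.2 and 12.8 on 2 of the 4 LPS arrays and at 13.2 on 1 of the 4 without LPS, and at 2.24 on the other 5. The Y-linked Eif2s3y read 2.24 to 2.31 on the Xist-high arrays and 8.56 to 9.75 on the other 5, and Uty split them in the same way. By these transcripts the arrays are of mixed sex, female for 2 of 4 with LPS and for 1 of 4 without. The Xist term is thus in effect a term for sex. Exocrine pancreas transcripts stood more than 2 units above the lowest value for 12 of 13 markers on the ABA array without LPS, replicate 2, and for 11 of 13 on the control diet array without LPS, replicate 2. They did so for 2 of 13 on each of the other 6 arrays. Adipose transcripts were high on both control diet LPS arrays, where Adipoq, the adipocyte hormone adiponectin, read 8.39 and 5.51, against 2.36 to 2.49 on the other arrays. All 8 liver markers with a probe set were within 1 unit of the lowest value on every array. The control diet array without LPS, replicate 1, was low in erythroid and proliferation transcripts, as described below. Pparg itself was not tested, because it read 2.45 on each LPS array and 3.31, 2.45, 3.30 and 2.50 on the arrays without LPS. Its values do not check the genotype, because the sources used here do not say whether the probe set lies inside the floxed stretch.

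With LPS, 384 genes rose (3.66% of those tested) and 261 fell (2.49%), and the median of all genes was -0.07. Of these, 197 rose and 80 fell by at least 2 units, and 51 rose and 6 fell by at least 4. All 4 LPS arrays lay above all 4 arrays without LPS for 840 genes (8.01%) and below them for 909 (8.66%), and 643 of the 645 called genes were among these. All 645 moved in the same direction on both diets, which the lack of overlap fixed for those 643. Of the genes that rose, 17 were within 0.5 of the lowest value on every array without LPS, and their changes are measured from that floor. Testing required 4 of the 8 arrays to exceed the lowest value by 0.5, so these 17 had no overlap by construction. The same holds in reverse for 7 genes that fell and were near the lowest value on every LPS array. Leaving out 1 array at a time gave 158 to 514 rising and 65 to 427 falling genes, the fewest without the control diet LPS array, replicate 2, and the most without the control diet array lacking LPS, replicate 1. With the median of each array set equal, 665 genes rose and 352 fell.

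The largest rise was that of Mmp13 (probe set 1417256_at), a collagenase that cleaves the collagens of the matrix. In all sentences that follow, array values run ABA replicates 1 and 2, then control diet replicates 1 and 2. Mmp13 read 11.59, 12.07, 11.98 and 11.21 with LPS, against 2.24, 2.24, 2.24 and 2.26 without. Its change was 9.46 (SE 0.21, adjusted p = 2.05e-05), measured from the floor of the table. Saa3 (1450826_a_at), an acute-phase apolipoprotein made outside the liver in the mouse, read 13.77, 13.36, 13.48 and 13.34 with LPS, against 4.84, 5.65, 3.62 and 4.16 without, a change of 8.92 (SE 0.33, adjusted p = 6.81e-05). Slfn4, a Schlafen gene of myeloid cells induced by interferon, read 13.24, 12.47, 11.23 and 12.04 with LPS, against 3.57, 3.86, 5.41 and 3.57 without, a change of 8.14 (SE 0.59, adjusted p = 0.00173). The 4 LPS arrays lay far above the 4 without for each of the 3 genes. The largest rises were taken only from called genes without overlap, so its absence was a condition of the choice. For Mmp13 the filter fixed it as well. The next largest were Acod1, which makes itaconate from a citric acid cycle intermediate, with 7.79, Il1rn, the secreted antagonist of the IL-1 receptor, with 7.50, and the chemokine Cxcl10 with 7.32. Ifit1, Timp1, Gzmb, Cxcl9, Gbp6 and Ubd followed, with changes of 7.15 down to 5.66, leaving out genes known only by a clone or RIKEN name.

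**Figure D1:**
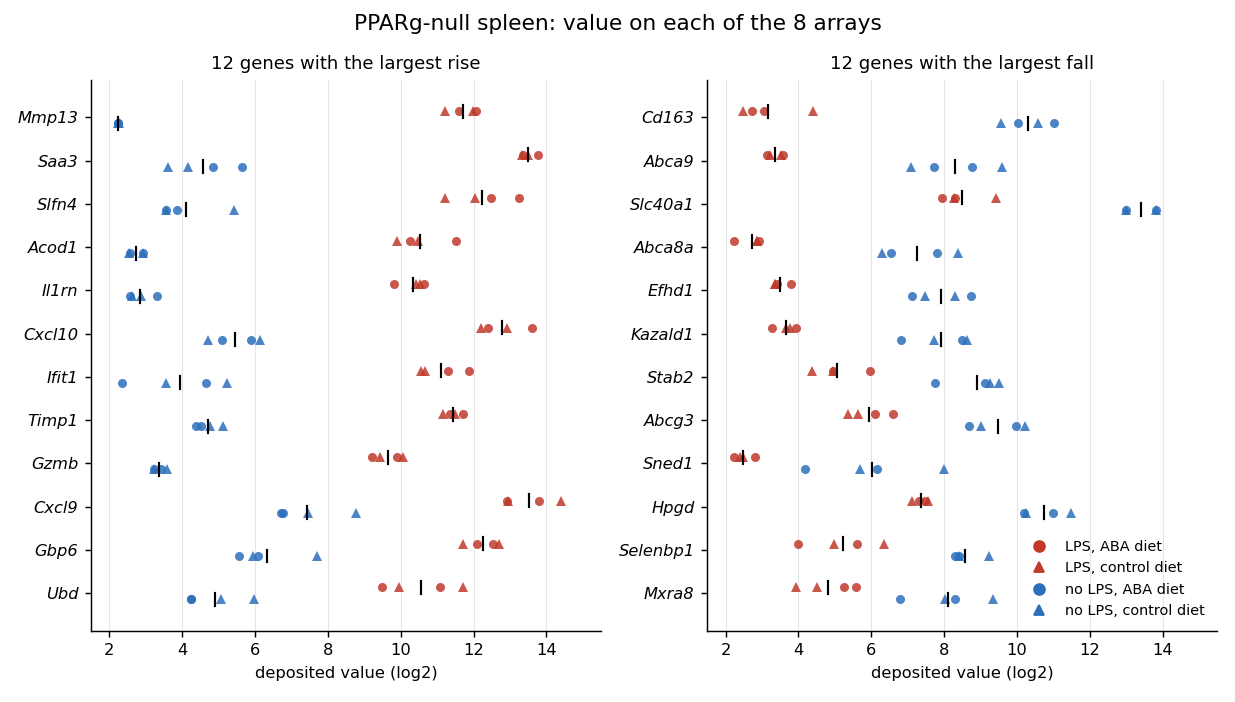
Deposited log2 value of the 12 genes with the largest rise (left) and the 12 with the largest fall (right) on each of the 8 null arrays, LPS in red and no LPS in blue, circles for the ABA diet and triangles for the control diet, with a black bar at each group's mean. The genes were chosen for groups that do not overlap, and Mmp13 without LPS sits at the lowest value of the table.

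The type I interferon-stimulated genes, which encode antiviral effectors and sensors, rose together. Of 28 genes listed, 25 had a probe set and were tested, 20 rose and none fell, and their median change was 3.45. All 25 had a positive change. Ifit1, which binds foreign RNA that lacks a host-type cap, read 11.88, 11.31, 10.68 and 10.55 with LPS, against 2.34, 4.66, 5.24 and 3.56 without, a change of 7.15 (SE 0.69, adjusted p = 0.00392). Oasl1, an oligoadenylate synthetase-like protein, read 10.57, 10.38, 10.36 and 10.11 with LPS, against 4.80, 4.85, 4.88 and 5.11 without, a change of 5.44 (SE 0.14, adjusted p = 3.69e-05). Oasl1 varied little within either group, and both genes were high on every LPS array. Ifnb1, the interferon that starts this programme, was not tested: it stood at the lowest value on all 4 LPS arrays and at 2.24 to 2.29 on the 4 without.

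Genes induced by interferon gamma rose as well: of 17 listed, 14 were tested, 12 rose and none fell, with a median of 3.49. These are mostly the guanylate-binding proteins and immunity-related GTPases that attack the membranes around intracellular microbes. Gbp6 read 12.10, 12.54, 11.70 and 12.70 with LPS, against 5.57, 6.08, 7.71 and 5.94 without, a change of 5.94 (SE 0.48, adjusted p = 0.00233). Ubd, the ubiquitin-like modifier FAT10, rose by 5.66 (SE 0.53, adjusted p = 0.00353). Ifng itself read 4.07, 4.10, 3.11 and 6.08 with LPS, against 2.29, 2.29, 2.24 and 2.24 without. Its groups did not overlap, which the filter fixed in advance, and its change of 2.07 (SE 0.60) did not pass (adjusted p = 0.103). Leaving out any 1 array gave 16 to 20 rising type I genes and 10 to 13 rising interferon gamma genes. With the Xist term 17 and 11 rose, and without the pancreas-high arrays 15 and 11.

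Promoters of the genes that rose were searched because both lists share a binding motif for interferon-activated STAT and IRF factors, the interferon-stimulated response element (ISRE). It was read as GAAA, any 2 bases and GAAA on either strand within the 250 bases before each RefSeq start in GRCm38.p6. It was present for 7 of the 17 type I genes and 6 of the 12 interferon gamma genes with a promoter in the table, and for 19 of 74 among the 100 genes that rose most. It was present for 2 of 81 among the 100 that fell most, and for 3.46% of all 27025 genes in the table. The NF-kB motif, read as GGGA, any base, TT, any base and CC on either strand, was present for 3 of 8 inflammatory chemokines, 4 of 13 NF-kB pathway genes and 8 of the same 74, against 0 of 81 genes that fell and 1.13% of all genes. Among the genes tested, from which these sets were drawn, the ISRE share was 3.42% and the NF-kB share 1.43%. The GATA motif AGATAA was present for 7 of 74 and 4 of 81, against 7.05% of the genes tested and 11.4% of all genes, and the E-box CACGTG for 3 of 74 and 7 of 81, against 10.02% of the genes tested and 6.86% of all genes. The share of GATA among the risers is thus above the one and below the other, and that of the E-box among the fallers below the one and above the other. A gene with several starts was counted if any of its promoters held the motif. A match is a description of the letters and not a binding site. The stretches below were chosen because they hold a motif and belong to genes that rose, so they do not show how common a motif is. The capitals mark the ISRE in the first 4 and the NF-kB motif in the last 3. Cxcl10 also held an ISRE, outside the stretch shown.
Ifit1, chr19:34640764-34640853, + strand: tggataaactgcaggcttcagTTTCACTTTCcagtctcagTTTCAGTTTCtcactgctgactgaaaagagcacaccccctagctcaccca
Ifit3, chr19:34583367-34583456, + strand: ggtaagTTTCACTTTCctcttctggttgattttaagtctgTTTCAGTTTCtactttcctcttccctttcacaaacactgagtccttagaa
Saa3, chr7:46715752-46715841, - strand: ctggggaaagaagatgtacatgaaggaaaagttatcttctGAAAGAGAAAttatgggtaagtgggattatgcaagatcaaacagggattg
Mmp13, chr9:7272328-7272417, + strand: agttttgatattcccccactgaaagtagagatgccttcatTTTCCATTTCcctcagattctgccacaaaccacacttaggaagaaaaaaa
Cxcl10, chr5:92348943-92349032, - strand: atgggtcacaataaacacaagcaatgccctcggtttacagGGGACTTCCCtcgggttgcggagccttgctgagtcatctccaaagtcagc
Cxcl1, chr5:90891134-90891223, + strand: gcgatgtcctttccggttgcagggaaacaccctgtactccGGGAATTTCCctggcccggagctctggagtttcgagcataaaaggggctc
Cxcl2, chr5:90903762-90903851, + strand: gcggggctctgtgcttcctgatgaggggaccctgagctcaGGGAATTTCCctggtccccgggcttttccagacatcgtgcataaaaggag
The 2 neighbouring neutrophil chemokines Cxcl1 and Cxcl2 carry the same 10 letters, and Ifit1 and Ifit3 carry 2 copies of the ISRE each.

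Ifit3 rose by 4.60, Cxcl1 by 4.59 and Cxcl2 by 5.33. These 3 genes were picked after their values were seen, as holders of a motif. Chemokines as a list rose: of 18 with a probe set 13 were tested, 11 rose and none fell, and all 13 lay higher on every LPS array, with a median change of 3.70. The other 5 did not leave the lowest value on enough arrays. A member at the floor on every array without LPS was tested only if above it on all 4 LPS arrays, so its separation was fixed. With testing limited to genes 1 unit above the lowest value on 6 arrays, 7 chemokines rose. Cxcl10, which draws activated T cells and NK cells through CXCR3, read 12.39, 13.59, 12.22 and 12.92 with LPS, against 5.89, 5.10, 6.13 and 4.70 without, a change of 7.32 (SE 0.44, adjusted p = 0.000921). Cxcl9, a ligand of the same receptor, read 12.93, 13.80, 12.95 and 14.39 with LPS, against 6.72, 6.76, 8.78 and 7.46 without, a change of 6.09 (SE 0.48, adjusted p = 0.00223). Both were at least 4 units higher on the lowest LPS array than on the highest without LPS.

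Fewer cytokines passed than chemokines. Of 20 with a probe set 16 were tested, 3 rose (Il1a, Il6 and Tnfsf10, the death ligand TRAIL, named after its value was seen) and none fell, with a median of 1.52. Il1a, an IL-1 receptor agonist held in cells until damage, read 7.77, 8.87, 7.81 and 8.73 with LPS, against 4.65, 4.19, 5.28 and 4.77 without, a change of 3.57 (SE 0.35, adjusted p = 0.00409). Il6, which drives the acute-phase response of the liver, read 5.96, 7.38, 5.93 and 4.64 with LPS and 2.24 on all 4 arrays without. Its change was 3.74 (SE 0.47, adjusted p = 0.00825), measured from the floor, and the filter fixed its lack of overlap. With testing limited to genes 1 unit above the lowest value on 6 arrays, 2 cytokines rose. Tnf, the early cytokine of macrophages, read 5.58, 5.33, 3.23 and 4.43 with LPS, against 2.46, 2.32, 2.98 and 2.74 without, a change of 2.02 (SE 0.49) with an adjusted p of 0.0658. Il1b read 10.63, 10.51, 9.60 and 9.93 with LPS, against 8.62, 6.44, 8.54 and 7.59 without, a change of 2.37 (SE 0.55) with an adjusted p of 0.0574. Neither Tnf nor Il1b had overlapping groups, and neither passed the threshold. With the median of each array set equal, 9 cytokines of the 16 rose, against 3 as deposited, and 5 rose without the control diet array lacking LPS, replicate 1.

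Inhibitors of the same pathways were among the clearest rises. Il1rn, which occupies the IL-1 receptor without signalling, read 10.63, 9.81, 10.42 and 10.54 with LPS, against 3.31, 2.58, 2.88 and 2.62 without, a change of 7.50 (SE 0.26, adjusted p = 6.81e-05). Il1r2, the decoy receptor for IL-1, read 9.94, 8.76, 8.26 and 8.30 with LPS, against 4.54, 4.78, 5.04 and 3.57 without, a change of 4.33 (SE 0.41, adjusted p = 0.00356). Of the 9 tested members of the IL-1 family list 3 rose and none fell, with a median of 0.81. Socs3, the feedback inhibitor of STAT3 signalling, read 11.97, 11.98, 12.44 and 12.13 with LPS, against 10.03, 9.29, 8.85 and 8.91 without, a change of 2.86 (SE 0.28, adjusted p = 0.00412). It was high on every LPS array. Of the 16 tested SOCS, STAT and JAK genes 4 rose and none fell, with a median of 0.12, and 1 rose without the control diet LPS array, replicate 2. Stat2, a transcription factor downstream of the type I interferon receptor, rose by 2.53 (SE 0.34, adjusted p = 0.0102) and lost its call without the control diet LPS array, replicate 2 (adjusted p = 0.053).

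In the NF-kB list, which holds subunits, inhibitors and feedback genes, 5 of 15 rose and none fell, with a median of 1.37. The called members were Nfkbiz, Tnfaip3, Tnip1, Ikbke and Zc3h12a, none of them a subunit of NF-kB, and the last 3 were named after their values were seen. Nfkbiz, an inducible coactivator on secondary response genes, read 11.17, 10.95, 10.24 and 10.57 with LPS, against 7.92, 7.28, 8.55 and 7.06 without, a change of 3.03 (SE 0.38, adjusted p = 0.00823). Tnfaip3, the ubiquitin-editing enzyme A20 that ends NF-kB signalling, rose by 2.90 (SE 0.39, adjusted p = 0.0109) and passed no longer without the control diet LPS array, replicate 2 (adjusted p = 0.0523). The number of NF-kB genes that rose was 2 without that array and 7 without the control diet array lacking LPS, replicate 1, and 11 with the median of each array set equal. Of 17 tested genes of LPS sensing and Toll-like receptor signalling 1 rose and none fell, with a median of 0.60, and 3 rose without the control diet array lacking LPS, replicate 1. That was Cd14, the co-receptor that hands LPS on, at 12.15, 12.68, 11.83 and 12.51 with LPS, against 10.22, 9.24, 10.14 and 8.88 without, a change of 2.68 (SE 0.37, adjusted p = 0.011). Its call too was lost without the control diet LPS array, replicate 2 (adjusted p = 0.054). Tlr4, the LPS receptor, read 4.52, 4.44, 4.76 and 4.58 with LPS, against 4.87, 4.98, 5.59 and 4.91 without, a change of -0.51 (SE 0.17) with an adjusted p of 0.142.

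Acute-phase and antimicrobial genes rose in 12 of 14 tested members, none fell, and the median change was 2.73. Lcn2, which withholds iron from bacteria by binding their siderophores, read 13.29, 13.57, 12.83 and 12.93 with LPS, against 8.95, 7.30, 6.55 and 7.26 without, a change of 5.64 (SE 0.39, adjusted p = 0.00154). The list had 7 rising genes without either the ABA array lacking LPS, replicate 1, or the control diet LPS array, replicate 1. With genes required to be 1 unit above the lowest value on 6 arrays it had 9. The Xist term gave 10 and the fit without the pancreas-high arrays 8. Cfb, the protease of the alternative complement pathway, read 10.86, 10.76, 10.83 and 11.22 with LPS, against 7.42, 7.02, 7.91 and 6.99 without, a change of 3.59 (SE 0.23, adjusted p = 0.00126). Cfb, C5ar1 and Itgam, the integrin chain of complement receptor 3 that was named after its value was seen, were the 3 of 14 complement genes that rose, none fell, and the list's median was 0.07, with 1 to 3 rising when 1 array was left out. The Xist term left 2 rising and the fit without the pancreas-high arrays 1. C5ar1, the anaphylatoxin receptor of myeloid cells, rose by 2.27 (SE 0.39, adjusted p = 0.023), a call lost without any 1 of 5 arrays (adjusted p up to 0.0859).

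Among matrix proteases, their inhibitors and coagulation genes 7 of 17 rose and 1 fell, with a median of 1.35. Timp1, an inhibitor of metalloproteinases, read 11.35, 11.71, 11.16 and 11.48 with LPS, against 4.39, 4.52, 4.77 and 5.12 without, a change of 6.72 (SE 0.20, adjusted p = 5.95e-05). Timp2, of the same family, ran the other way. It read 9.34, 8.42, 8.67 and 8.33 with LPS, against 11.34, 10.30, 11.61 and 10.50 without, a change of -2.25 (SE 0.38, adjusted p = 0.0233), lost without any 1 of 4 arrays (adjusted p up to 0.0961). In the macrophage effector enzymes 1 of 11 tested rose, and the median was 0.02. That was Acod1, at 10.26, 11.52, 9.89 and 10.47 with LPS, against 2.58, 2.92, 2.56 and 2.92 without, a change of 7.79 (SE 0.33, adjusted p = 0.000148). The values of Acod1 without LPS were within 1 unit of the lowest value. With testing limited to genes 1 unit above it on 6 arrays, 0 of this list rose. Upp1, uridine phosphorylase, read 8.45, 8.67, 8.01 and 8.52 with LPS, against 2.62, 2.92, 2.92 and 3.06 without, a change of 5.53 (SE 0.19, adjusted p = 6.81e-05), among the 5 smallest p of the genes that rose.

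Genes of cell death and cytotoxicity held some of the best separated values. Gzmb, the granule protease of NK and cytotoxic T cells, read 9.22, 9.89, 9.43 and 10.07 with LPS, against 3.43, 3.22, 3.59 and 3.22 without, a change of 6.29 (SE 0.22, adjusted p = 6.81e-05). Of the 13 tested genes of NK and cytotoxic cells, Gzmb and Gzma rose and none fell, with a median of 0.53. Gzma rose by 2.82 (SE 0.47, adjusted p = 0.022), a call lost without any 1 of 4 arrays (adjusted p up to 0.0704). Mlkl, the pore-forming executor of necroptosis, read 9.10, 8.61, 9.22 and 9.08 with LPS, against 3.89, 4.37, 4.96 and 4.88 without, a change of 4.48 (SE 0.19, adjusted p = 0.000148). Casp4, which binds intracellular LPS and cleaves gasdermin D, read 9.92, 9.83, 10.10 and 10.65 with LPS, against 6.71, 5.73, 7.61 and 5.73 without, a change of 3.68 (SE 0.44, adjusted p = 0.00703). These were the 2 of 11 genes of inflammasomes and lytic death that rose, none fell, and the median was 1.09. In the BCL2 family 1 of 11 passed, the pro-apoptotic Bcl2l11, which rose by 1.07 (SE 0.20, adjusted p = 0.0326), a call lost without any 1 of 6 arrays (adjusted p up to 0.111). With the Xist term 0 of the family rose.

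Antigen presentation divided by class. Of 13 tested class I genes, which load peptides for CD8 T cells, 8 rose and none fell, with a median of 1.67. Nlrc5, the transactivator of class I genes, rose by 2.85 (SE 0.45, adjusted p = 0.0184), and Tap1, a subunit of the peptide transporter, by 2.89 (SE 0.51, adjusted p = 0.0251). Tap1 was higher on the ABA LPS arrays, at 10.25 and 10.84, than on the control diet LPS arrays, at 9.63 and 9.90. Neither Tap1 nor any other gene passed the test of a diet difference in the LPS change, described below. When either ABA LPS array or the control diet LPS array, replicate 2, was left out, 1 class I gene rose. The same count held without the ABA array lacking LPS, replicate 1. With the Xist term, or without the pancreas-high arrays, 2 rose. Nlrc5 and Tap1 lost their calls without any 1 of 4 and any 1 of 5 arrays (adjusted p up to 0.0778 and 0.0895). Of 10 tested class II genes none rose and 1 fell, with a median of -0.70. That was H2-Ob, a chain of the inhibitor of class II peptide loading in B cells, at 8.75, 8.92, 8.75 and 9.46 with LPS, against 11.65, 11.00, 12.55 and 10.61 without, a change of -2.49 (SE 0.44, adjusted p = 0.0251). It too lost its call without any 1 of 6 arrays (adjusted p up to 0.0945). Without the pancreas-high arrays 4 class II genes fell, and with the Xist term 0.

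Co-stimulatory and checkpoint molecules rose in 4 of 11 tested members and fell in none, with a median of 1.66. Cd274, the checkpoint ligand PD-L1, read 10.33, 10.79, 10.33 and 10.67 with LPS, against 6.21, 5.12, 7.77 and 5.96 without, a change of 4.27 (SE 0.50, adjusted p = 0.00684). Tnfrsf9, the co-stimulatory receptor 4-1BB, read 9.21, 8.36, 8.22 and 7.81 with LPS, against 5.32, 5.24, 4.40 and 4.83 without, a change of 3.45 (SE 0.22, adjusted p = 0.00126). The LPS arrays were high for both, with PD-L1 nearly level among them. In the T cell list 1 of 18 rose and none fell, with a median of -0.17, and the riser was Ccr7, the homing receptor that mature dendritic cells also carry (change 2.26, SE 0.34, adjusted p = 0.016, lost without any 1 of 4 arrays with adjusted p up to 0.0604). None of 9 dendritic cell genes passed, with a median of -0.30, and Ly75, the endocytic receptor DEC-205, had the smallest p (change 1.82, SE 0.40, adjusted p = 0.0504).

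Immediate-early and stress transcription factors rose in 7 of 17 members and fell in none, with a median of 1.44. Atf3, a stress-induced repressor of inflammatory genes, read 5.95, 5.85, 6.15 and 6.65 with LPS, against 2.74, 3.57, 2.90 and 3.57 without, a change of 2.96 (SE 0.26, adjusted p = 0.0033). Between 1 and 6 of the list rose when 1 array was left out, the fewest without the ABA array lacking LPS, replicate 1, 3 with the Xist term and 1 without the pancreas-high arrays. Nfil3 was the only one of 12 clock genes to pass, and it is a repressor also known from NK cell development. It read 5.83, 5.93, 5.19 and 4.50 with LPS, against 2.88, 3.18, 2.87 and 2.83 without, a change of 2.42 (SE 0.24, adjusted p = 0.00414). The values of Nfil3 without LPS were within 1 unit of the lowest value. With testing limited to genes 1 unit above it on 6 arrays, 0 clock genes rose. Cdkn1a, the cell cycle inhibitor p21, read 6.77, 6.90, 5.62 and 6.10 with LPS, against 4.08, 4.08, 4.08 and 4.12 without, a change of 2.26 (SE 0.24, adjusted p = 0.00482). It was 1 of 2 glucocorticoid-responsive genes of 11 that rose, beside the phosphatase Dusp1 (change 1.62, adjusted p = 0.0297, lost without any 1 of 7 arrays with adjusted p up to 0.108). Of that list 1 gene rose with the Xist term and 1 without the pancreas-high arrays.

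Of 18 genes of glycolysis and HIF-1 targets 6 rose and none fell, with a median of 0.91. Slc2a6, a hexose transporter, rose by 3.36 (SE 0.52, adjusted p = 0.0169), and Pfkfb3, which makes the activator of phosphofructokinase, by 2.70 (SE 0.46, adjusted p = 0.0235). None of the 6 calls remained without the ABA array lacking LPS, replicate 1, and none without the control diet LPS array, replicate 2, while 2 genes rose with the Xist term and 3 without the pancreas-high arrays. No gene passed among 25 of oxidative phosphorylation (median -0.16), 22 cytosolic ribosomal proteins (median -0.04, range -0.14 to 0.19), 15 of cholesterol synthesis (median 0.54) or 21 of the unfolded protein response (median 0.15).

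**Figure D2:**
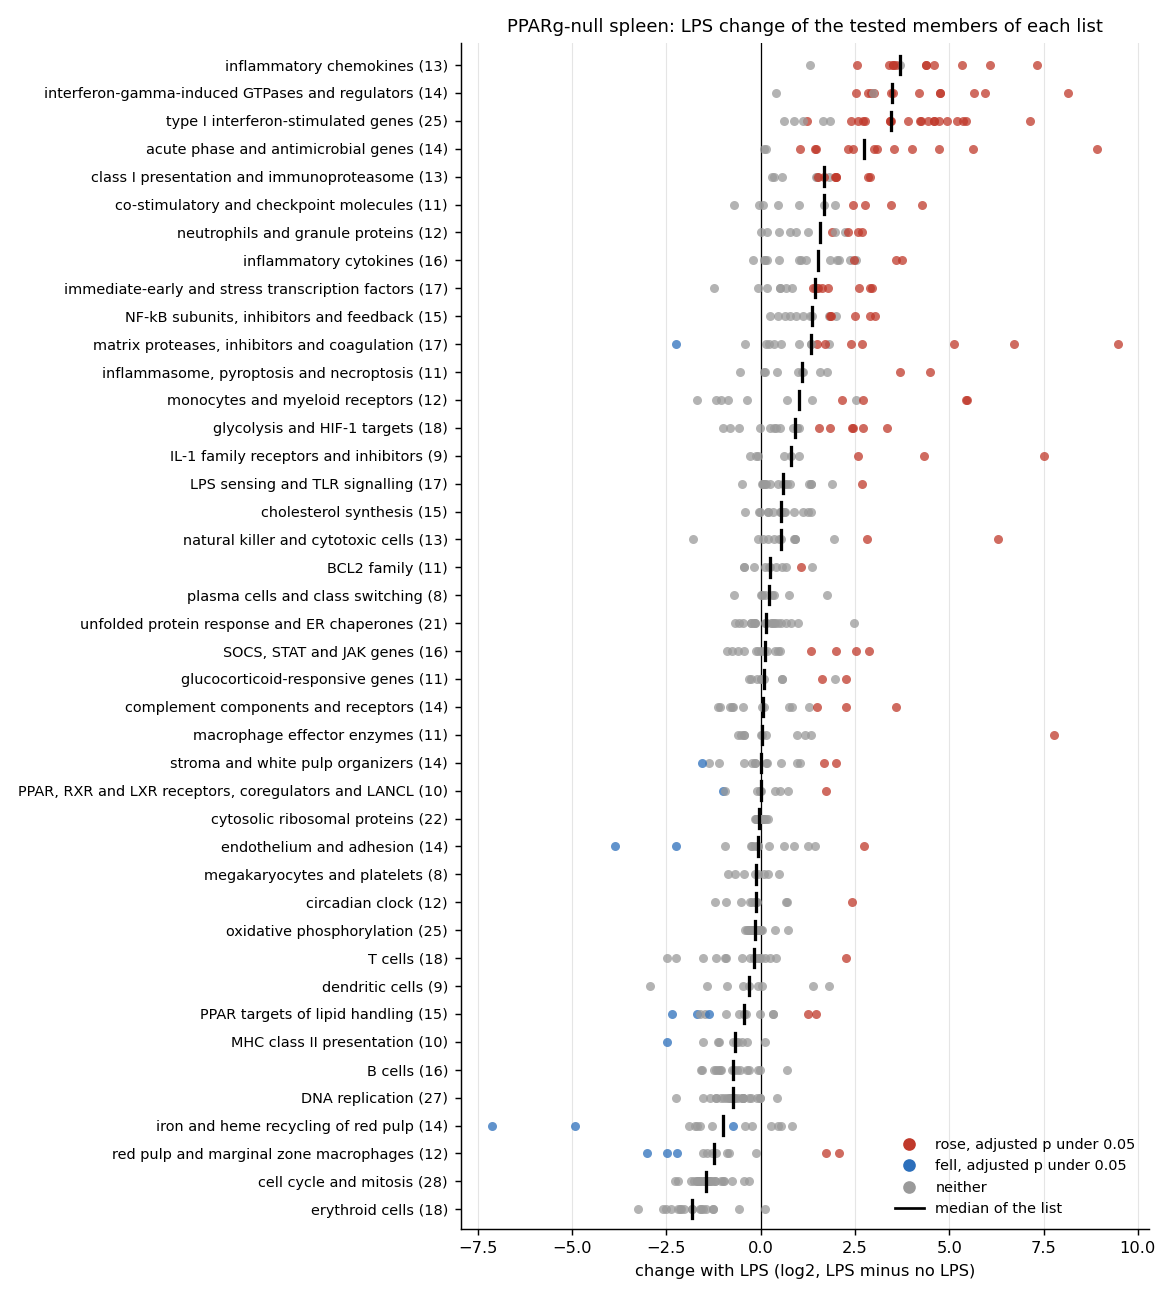
Change with LPS (log2, LPS minus no LPS) of every tested member of each list with at least 8 tested members, ordered by median (black bar), with the number tested in brackets, red for genes that rose, blue for genes that fell and grey for neither. Chemokines and both interferon lists lie highest with medians of 3.70, 3.49 and 3.45, while the erythroid list, at -1.83, and the cell cycle list, at -1.45, lie lowest without a called member.

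The largest fall was that of Cd163, the haptoglobin-hemoglobin scavenger receptor of red pulp macrophages (1419144_at). It read 2.73, 3.06, 4.40 and 2.47 with LPS, against 11.01, 10.02, 10.59 and 9.56 without, a change of -7.13 (SE 0.52, adjusted p = 0.00179). Slc40a1, the iron exporter ferroportin (1417061_at), read 8.28, 7.95, 9.42 and 8.28 with LPS, against 13.81, 12.98, 13.82 and 13 without, a change of -4.92 (SE 0.37, adjusted p = 0.00188). The control diet LPS array, replicate 1, was the highest of the LPS arrays for both, and still far below every array without LPS. Lack of overlap was a condition for the largest falls too. Of the 14 tested genes of iron and heme recycling 3 fell and none rose, with a median of -1.01, and the other called member, biliverdin reductase Blvra, was chosen for mention after its value was seen (change -0.73).

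Of the 12 tested genes of red pulp and marginal zone macrophages 3 fell and 2 rose, with a median of -1.24. Without the pancreas-high arrays 7 fell and 0 rose, and with the Xist term 3 fell and 0 rose. Mrc1, the mannose receptor, read 7.71, 8.33, 8.88 and 8.17 with LPS, against 11.53, 11.13, 12.06 and 10.42 without, a change of -3.02 (SE 0.41, adjusted p = 0.0106), lost without the control diet LPS array, replicate 2 (adjusted p = 0.0534). Cd5l, a macrophage protein of lipid metabolism and survival, fell by 2.48 (SE 0.36, adjusted p = 0.0144), with adjusted p up to 0.056 without 1 array. Marco, the scavenger receptor of marginal zone macrophages, ran against them. It read 13.78, 14.33, 13.69 and 13.73 with LPS, against 11.85, 10.90, 12.57 and 11.92 without, a change of 2.07 (SE 0.36, adjusted p = 0.0243), lost without any 1 of 6 arrays (adjusted p up to 0.0807). Monocyte and myeloid receptors rose in 4 of 12 tested members, with a median of 1.02, and fell in 0, or in 3 without the pancreas-high arrays. Fcgr4, an activating Fc receptor of monocytes and macrophages, read 11.35, 11.79, 11.32 and 11.64 with LPS, against 6.15, 4.34, 7.64 and 6.13 without, a change of 5.46 (SE 0.59, adjusted p = 0.00538). Fpr2, a receptor for formylated peptides and serum amyloid A, read 12.37, 12.58, 12.32 and 12.53 with LPS, against 8.16, 5.32, 7.80 and 6.72 without, a change of 5.45 (SE 0.61, adjusted p = 0.00613). Both were nearly level among the LPS arrays and scattered without LPS.

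Neutrophil genes rose in 4 of 12 tested members and fell in none, with a median of 1.57. Their number was 2 without any 1 of 5 arrays or with the Xist term, and 6 without the control diet array lacking LPS, replicate 1. Chil3, a chitinase-like protein of myeloid cells, read 11.03, 10.87, 10.96 and 9.88 with LPS, against 8.42, 8.96, 7.41 and 7.60 without, a change of 2.59 (SE 0.29, adjusted p = 0.00586). Mmp8, the neutrophil collagenase, rose by 2.70 (SE 0.56, adjusted p = 0.0422), a call lost without any 1 of 7 arrays (adjusted p up to 0.139).

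Abca9 and Abca8a, lipid transporters of the ABCA family, fell by 4.93 (SE 0.55, adjusted p = 0.00586) and by 4.53 (SE 0.50, adjusted p = 0.00586). Abca8a read 2.92, 2.24, 2.88 and 2.88 with LPS, against 7.81, 6.54, 8.37 and 6.31 without, so that it was near the lowest value in the LPS group. Efhd1, a calcium-binding mitochondrial protein, read 3.79, 3.42, 3.36 and 3.36 with LPS, against 8.74, 7.12, 8.30 and 7.47 without, a change of -4.42 (SE 0.38, adjusted p = 0.00274). Stab2, the hyaluronan receptor of splenic and liver sinus endothelium, read 5.97, 4.94, 4.94 and 4.36 with LPS, against 9.12, 7.75, 9.51 and 9.27 without, a change of -3.86 (SE 0.50, adjusted p = 0.00955). Tek, the angiopoietin receptor TIE2, fell by 2.25 (SE 0.28, adjusted p = 0.00826), while Icam1, the adhesion molecule of activated endothelium and leukocytes, rose by 2.75 (SE 0.45, adjusted p = 0.0201, lost without any 1 of 4 arrays with adjusted p up to 0.0747). These were the 3 called of 14 endothelial genes, whose median was -0.08. Hpgd, which inactivates prostaglandins, read 7.47, 7.32, 7.56 and 7.11 with LPS, against 11.00, 10.18, 11.48 and 10.26 without, a change of -3.36 (SE 0.32, adjusted p = 0.00394). The extracellular matrix protein gene Kazald1 fell by 4.25 (SE 0.41, adjusted p = 0.004), and Abcg3, Sned1, Selenbp1 and Mxra8 fell by 3.54, 3.53, 3.36 and 3.29. The calls of Sned1 and Mxra8 were lost without any 1 of 6 arrays (adjusted p up to 0.136 and 0.112), and that of Selenbp1 without the ABA array lacking LPS, replicate 1 (adjusted p = 0.0508). Nfia, a nuclear factor I gene, and Gpr155 were among the 5 smallest p of the genes that fell, with changes of -2.23 (SE 0.19, adjusted p = 0.00274) and -2.80 (SE 0.25, adjusted p = 0.00319). In the stroma list 2 of 14 rose, the basement membrane collagens Col4a1 and Col4a2 (changes 2.00 and 1.67), and 1 fell, the chemokine Cxcl12 (change -1.57), with a median of 0.00. All 3 calls were lost without single arrays (adjusted p up to 0.0870, 0.127 and 0.141). With the Xist term 1 of the list rose and 0 fell, and without the pancreas-high arrays 1 rose and 3 fell.

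The receptors that PPARg works with and its targets were read in mice that lack PPARg in part of their cells. Of 10 tested PPAR, RXR and LXR genes with their coregulators and the LANCL genes, 1 rose and 1 fell, with a median of -0.00. Nr1h3, which encodes LXRa, read 8.25, 8.72, 8.01 and 7.91 with LPS, against 6.47, 5.73, 7.11 and 6.61 without, a change of 1.74 (SE 0.33, adjusted p = 0.0335). Rxra, the shared partner RXRa, read 6.75, 6.90, 6.67 and 6.47 with LPS, against 7.98, 7.23, 7.85 and 7.71 without, a change of -0.99 (SE 0.20, adjusted p = 0.0394). Neither gene's groups overlapped, and both calls were lost without single arrays (adjusted p up to 0.109 and 0.137). With the Xist term 0 of the list rose and 0 fell, and without the pancreas-high arrays 0 rose and 1 fell. With the mean of all probe sets of each gene 1 rose and 0 fell, so Rxra was not called. Over the settings tried its change ran from -1.22 to -0.33. Lancl2, reported as a receptor for ABA in mammalian cells, read 7.47, 6.23, 7.27 and 7.27 with LPS, against 7.49, 8.39, 7.60 and 8.55 without, a change of -0.95 (SE 0.37) that did not pass (adjusted p = 0.193).

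Of 15 tested PPAR targets of lipid handling 2 rose and 3 fell, with a median of -0.45. Without the pancreas-high arrays 7 fell, and 1 to 4 fell when 1 array was left out. Fabp5, a fatty acid carrier, read 12.65, 12.58, 12.46 and 12.34 with LPS, against 11.10, 10.95, 11.15 and 10.95 without, a change of 1.47 (SE 0.12, adjusted p = 0.00233). Plin2, which coats lipid droplets, rose by 1.27 (SE 0.21, adjusted p = 0.0212), with adjusted p up to 0.0726 without 1 array. Acaa2, the last enzyme of mitochondrial fatty acid oxidation, read 7.30, 7.41, 7.54 and 7.20 with LPS, against 9.21, 8.51, 9.32 and 9.14 without, a change of -1.68 (SE 0.20, adjusted p = 0.00672). Mgll, which splits monoglycerides, fell by 2.36 (SE 0.37, adjusted p = 0.0181), with adjusted p up to 0.0747 without 1 array. Fabp5 and Plin2 thus rose while Acaa2 and Mgll fell, and the calls of Plin2 and Mgll were each lost without any 1 of 5 arrays. These 4 genes were named for the largest called changes in the list, and 10 of the 15 tested passed in neither direction. Fabp4, a fatty acid carrier of adipocytes, read 7.88, 7.44, 10.74 and 9.82 with LPS, against 6.95, 7.02, 6.96 and 6.81 without, a change of 2.04 (SE 0.58) with an adjusted p of 0.1. It was high on the 2 control diet LPS arrays on which Adipoq was also high, and the part of adipose tissue in these values was not tested.

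Erythroid and proliferation transcripts had negative medians and no called member. The 18 tested erythroid genes had a median change of -1.83, with 17 negative, the 28 cell cycle genes -1.45, with 28 negative, and the 27 DNA replication genes -0.73, with 26 negative, against -0.07 over all genes. Slc4a1, the anion exchanger band 3 of red cells, read 10.30, 13.09, 13.15 and 11.89 with LPS, against 13.65, 14.61, 10.53 and 14.67 without. Mki67, the proliferation antigen Ki-67, read 9.76, 10.94, 11.88 and 10.76 with LPS, against 12.80, 13.43, 10.16 and 13.52 without. Both genes were chosen for mention after their values were seen. In each the control diet array without LPS, replicate 1, was the outlying low value, below 3 of the 4 LPS arrays. The erythroid list mean ran from 6.84 to 9.60 with LPS, and read 10.4, 11.3, 6.99 and 11.9 without. Without that array 6 erythroid, 13 cell cycle and 6 DNA replication genes fell, against 0 in each list with it. The part of this array's low values in other results was not tested. B cell genes had a median of -0.73 with none of 16 called, and Cd79a, a chain of the B cell receptor complex, changed by -1.56 (SE 0.53, adjusted p = 0.151). None of 8 plasma cell genes (median 0.21) and none of 8 platelet genes (median -0.11) passed.

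**Figure D3:**
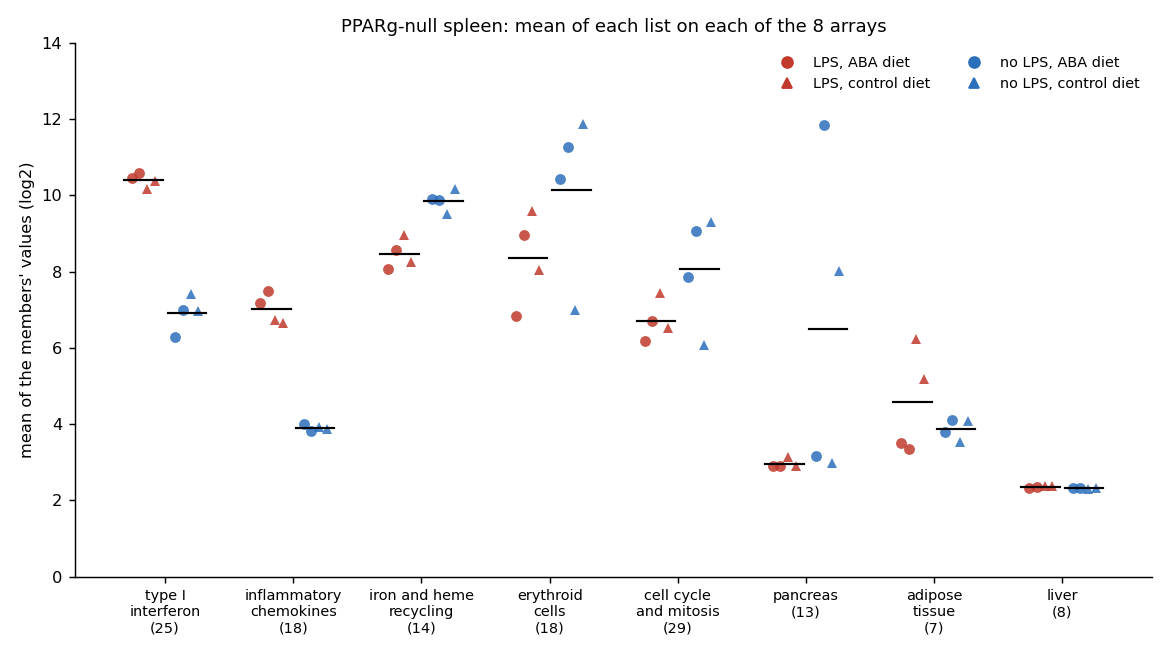
Mean log2 value of all members with a probe set (number in brackets) of 8 lists on each null array, LPS in red left of no LPS in blue, circles for the ABA diet and triangles for the control diet, with a bar at each group's mean. The interferon and chemokine means separate fully, the erythroid and cell cycle means do not because of 1 control diet array without LPS, pancreas is high on 2 arrays without LPS, and adipose tissue on the 2 control diet LPS arrays.

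The LPS response was also read on each diet, 2 arrays against 2, from a fit of all 8 arrays that share 1 estimate of the spread. On the ABA diet 249 genes rose (2.37%) and 44 fell (0.419%), and on the control diet 139 rose (1.32%) and 145 fell (1.38%). Fits of either diet's 4 arrays alone called 0 genes in each direction. The medians of all genes in the shared fit were 0.02 on the ABA diet and -0.21 on the control diet, and 99 genes rose and 21 fell on both diets. These counts hang on single arrays even more than the pooled ones, with 17 to 332 rising genes on the ABA diet and 6 to 247 on the control diet when 1 array was left out, and their order is not a result. No gene passed the test of the difference between the diets (limma, smallest adjusted p = 0.116), while 1316 genes had an unadjusted p under 0.05. Of these 1316 the difference was higher on the ABA diet for 1120, and the median difference over all genes was 0.29. Across genes the 2 diets' changes correlated at 0.63, a description over 10492 genes that share arrays and are not independent.

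The smallest p values of the diet difference had a repeated layout. Slc1a4, an exchanger of small neutral amino acids, read 7.05, 6.96, 7.69 and 7.72 with LPS, against 7.20, 7.66, 4.53 and 4.49 without. Its LPS change was 3.62 units lower on the ABA diet (adjusted p = 0.116), because both control diet arrays without LPS were low. Thrsp, a regulator of lipid synthesis, read 5.46, 5.32, 6.78 and 6.55 with LPS, against 6.38, 6.15, 4.55 and 4.09 without. It too was low on both control diet arrays without LPS. On the ABA diet Thrsp was lower with LPS, and its highest values were on the 2 control diet LPS arrays, where Adipoq was also high. The part of adipose tissue in its values was not tested. Trib3, a stress-induced pseudokinase of the integrated stress response, read 6.34, 6.05, 7.20 and 7.04 with LPS, against 5.45, 5.16, 2.57 and 3.52 without, with a pooled change of 2.48 (SE 0.66, adjusted p = 0.087). Rasa4, a Ras GTPase-activating protein, was the reverse. It read 5.87, 5.66, 3.58 and 3.60 with LPS, against 2.70, 2.64, 3.60 and 3.60 without, and its LPS change was 3.10 units higher on the ABA diet (adjusted p = 0.116). Lad1, an anchoring filament protein of epithelia, was higher with LPS on both diets, with values of 6.54, 6.37, 4.37 and 4.43 with LPS, against 2.56, 2.56, 2.94 and 2.67 without, a pooled change of 2.75 (SE 0.47, adjusted p = 0.023) lost without any 1 of 5 arrays (adjusted p up to 0.0811). None of these diet differences passed the threshold.

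**Figure D4:**
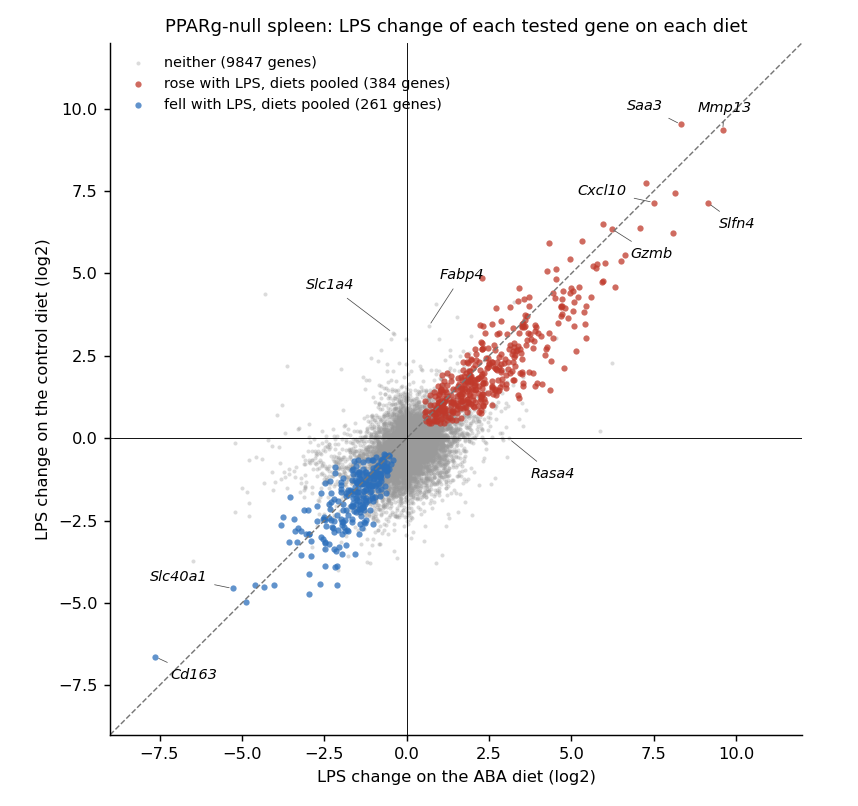
LPS change (log2) of each tested gene in null spleen on the ABA diet (horizontal) and on the control diet (vertical), red for the 384 genes that rose and blue for the 261 that fell with the diets pooled, grey for the rest, with a dashed line of equal change. All 645 called genes have the same sign on both axes, which groups without overlap fixed for 643 of them. Slc1a4 and Rasa4, with the smallest p for a diet difference, lie near an axis.

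Wild-type mice of the same experiment, given LPS on the same diets, had 848 rising (8.08%) and 659 falling (6.28%) genes of 10493. Of the 645 genes called in null mice 638 were also tested in wild-type mice, all 638 changed in the same direction, and 481 were called there too. These 481 are 74.6% of the null calls and 31.9% of the wild-type calls. The median change of the genes that rose in null mice was 2.03 in null and 2.45 in wild-type mice, and that of the genes that fell was -1.57 in null and -1.41 in wild-type mice. Across 10462 genes the changes of the 2 genotypes correlated at 0.87. The Saa3 change was 8.92 in null and 7.91 in wild-type mice, that of Mmp13 9.46 and 8.33, and that of Cd163 -7.13 and -6.84, and none of these differences passed (adjusted p from 0.93).

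The erythroid and cell cycle lists had medians of -1.83 in null and -4.21 in wild-type mice for erythroid genes, and of -1.45 in null and -3.21 in wild-type mice for cell cycle genes. In wild-type mice 17 of 18 and 22 of 28 members fell. No member of either list passed the test of the genotype difference, whose smallest adjusted p was 0.93 in each list. The control diet null array without LPS described above is among the arrays behind the null medians.

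Of 10523 genes tested for a genotype difference in the LPS change, 467 had an unadjusted limma p under 0.05, a share that is itself below 0.05. Of these 467 the LPS change was higher in null mice for 177 and lower for 290. The difference passed for 4 genes (0.038%), all higher in null mice. Leaving out 1 of the 16 arrays left fewer than 4 such genes in 15 cases, down to 1, and gave 2 lower genes without the control diet null array lacking LPS, replicate 2. A replicate block or the Xist term left 2. H1f7, a testis-type linker histone gene, read 3.82, 3.76, 4.43 and 4.64 with LPS, against 3.82, 3.82, 2.24 and 2.35 without, in null mice. In wild-type mice it read 3.99, 3.82, 3.13 and 3.10 with LPS, against 4.45, 4.42, 3.82 and 3.77 without. The LPS change was thus 1.10 in null and -0.60 in wild-type mice, a difference of 1.71 (adjusted p = 0.00429). Speg, a muscle-type kinase gene, read 5.59, 5.51, 6.47 and 6.11 with LPS, against 5.57, 5.57, 2.73 and 3.85 without, in null mice, and its LPS change was 1.49 in null and -1.46 in wild-type mice (difference 2.95, adjusted p = 0.0382). Scrn2, a secernin gene, gave 0.67 in null and -0.86 in wild-type mice (difference 1.54, adjusted p = 0.0415), and 1700110K17Rik gave 1.40 and -1.20 (difference 2.59, adjusted p = 0.00829). In all 4 genes the 2 null control diet arrays without LPS were the lowest of the 8 null arrays, and the LPS change on the ABA diet lay between -0.37 and -0.02 in null mice. H1f7 passed with each array left out (adjusted p up to 0.0281), while Speg and Scrn2 did not (adjusted p up to 0.194 and 0.195). The H1f7 change on the null control diet is measured from 2.24 and 2.35, at or near the lowest value of the table. 1700110K17Rik fell outside the rule for named genes and was named after its value was seen. In the other direction Il1f9, an IL-1 family cytokine of epithelia and myeloid cells, changed by 1.40 in null and 2.64 in wild-type mice, a difference that did not pass (adjusted p = 0.739).

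**Figure D5:**
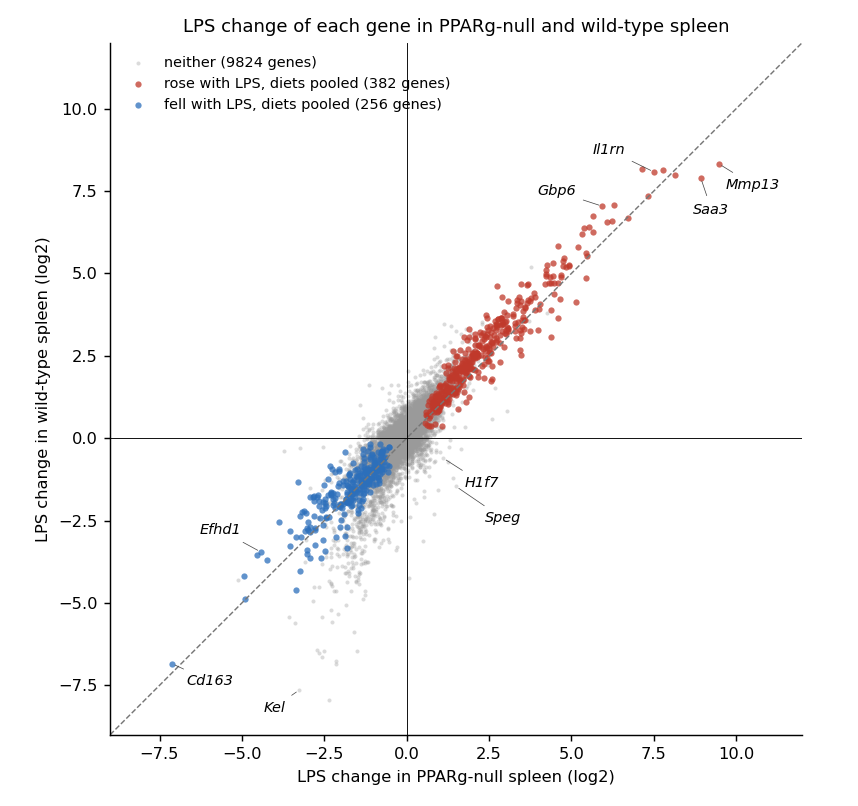
LPS change (log2) of each gene tested in both genotypes, in null spleen (horizontal) and in wild-type spleen (vertical), red for genes that rose and blue for genes that fell in null mice, grey for the rest, with a dashed line of equal change. The 638 called genes have the same sign on both axes, and a grey arm of genes, Kel among them, fell further in wild-type than in null mice without passing the test of the difference.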

How the data were processed

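The deposited table holds 1 log2 value per probe set and array. GCRMA and limma appear in the submitters' processing notes, which state neither version nor role. Groups came from the labels. Members and gene lists were chosen with earlier results of these data known, so no list is independent evidence. Of 45101 probe sets 34945 named 1 gene, and each of 18193 genes kept the one with the highest mean over the 16 arrays of the experiment. A gene was tested if at least 4 of the 8 null arrays exceeded the lowest value by 0.5. The fit used lmFit and eBayes of limma 3.58.1 (R 4.3.3) with diet as a term, 5 residual and 1.53 prior degrees of freedom, and p-values were adjusted by Benjamini-Hochberg at 0.05. The fits were tested on simulated data. Of 819 entries in 46 lists, 736 matched a probe set and 633 were tested. Genes named were the 12 largest rises and falls without overlap, up to 2 called risers and fallers per list (or the smallest p), 10 fixed genes, and the smallest p of each test. Promoter sequences are RefSeq's (GRCm38.p6). The labels do not say that replicate numbers pair the samples. Deviations of same-numbered arrays from their group means correlated from -0.54 to 0.51, which with 2 arrays per group cannot decide it. The number of arrays limits the precision. Figures used matplotlib 3.10.9.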

Additional observations from a re-analysis of the deposited data

Results flagged for a closer look

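Of 220 values of named genes tested for an array far from the other 3 of its group (gap over range above Dixon's critical value), 18 met the rule, and chance meets it in about 1 in 20 groups. On the ABA LPS arrays, replicate 2 was apart for Abca8a (2.24), Lancl2 (6.23), Marco (14.3) and Tek (3.06), and replicate 1 for Efhd1 (3.79). On the control diet LPS arrays, replicate 1 was apart for Cela1 (7.56) and Nfia (6.15), and replicate 2 for Chil3 (9.88) and Map3k14 (3.38). Without LPS, the control diet array, replicate 1, was apart for Cxcl2 (2.24), Slfn4 (5.41), Stat2 (6.05), Tek (6.24) and Tlr4 (5.59), and replicate 2 for Cdkn1a (4.12), Mmp13 (2.26) and Selenbp1 (9.22). The ABA array without LPS, replicate 2, was apart for Nfil3 (3.18). For Cdkn1a, Cxcl2, Mmp13 and Tek with LPS the other 3 arrays were identical, so that a small step met the rule.

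The LPS change differed between null and wild-type mice by limma's interaction test for H1f7 (difference 1.71, adjusted p = 0.00429), 1700110K17Rik (2.59, adjusted p = 0.00829), Speg (2.95, adjusted p = 0.0382) and Scrn2 (1.54, adjusted p = 0.0415). Leaving out 1 of the 16 arrays left 1 to 6 genes higher in null mice and 0 to 2 lower.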

How the results depend on the processing

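Against 384 rising and 261 falling genes as deposited, quantile normalization gave 593 and 347, median centring 665 and 352, no filter 167 and 81, array weights 865 and 911, and a term for high Xist 234 and 121. Genes that fell numbered 547 in a fit of 16 arrays, 546 without the arrays with Cpa1, and 1018 once the mean of the erythroid list entered as a covariate, a setting chosen after seeing the data, as was the adipose one. Fits of the ABA diet alone and of the control diet alone, on 4 arrays each, called 0 and 0 genes. Without 1 array, 158 to 514 rose and 65 to 427 fell, and 2 to 28 named genes lost their call, 28 without the control diet LPS array, replicate 2. With the mean of all probe sets of each gene 403 rose and 258 fell. Over the settings tried the change ran from 0.83 to 3.62 for Tap1 and from 1.72 to 3.61 for Tnfrsf9. It ran from -5.82 to -2.46 for Abca9, -3.87 to -1.84 for Hpgd, -2.11 to -0.65 for Cxcl12 and -1.22 to -0.33 for Rxra.

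On the ABA diet (249 and 44), quantile normalization gave 80 falling genes, no filter 56 and 8, and single arrays left out 17 to 332 and 0 to 88. On the control diet (139 and 145), quantile normalization gave 280 rising genes, no filter 76 and 54, and single arrays left out 6 to 247 and 0 to 396. The diet difference had 5 and 12 genes with no filter. The genotype difference (4 and 0) had 14 and 5 with no filter, 2 rising with a term for high Xist, and 1 to 6 and 0 to 2 with single arrays left out. The causes were not tested.

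With the replicate number as a block, a pairing that the labels do not state, 315 genes rose and 228 fell with diets pooled, 64 and 8 on the ABA diet, 53 and 30 on the control diet, and 2 genes passed the genotype difference.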
